A study of Mus musculus with 12 samples.

Results

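The S100 genes encode small calcium-binding proteins, and 10 of them (S100a3, S100a4, S100a6, S100a8, S100a9, S100a10, S100a11, S100a13, S100a14 and S100a16) were followed in RNA from dorsal epidermal scrapings of mice. They were taken by gene symbol from the table of read counts, which lists 14533 genes, and all 10 were present. Values were available for 6 WT mice (replicates 1 to 6) and 6 Pparg-/-epi mice (replicates 7 to 12), with 1 library per mouse. All mice were C57BL/6, untreated and homozygous for the floxed Pparg allele. Pparg-/-epi mice also carried 1 copy of a Cre transgene driven by the keratin 14 promoter (Cre+/-), which is active in basal keratinocytes of epidermis and hair follicle, and WT siblings lacked it (Cre-/-). The presence of Cre and the loss of Pparg therefore cannot be told apart. Labelled ages were 8 to 13 weeks in each group, and 3 of 6 WT and 4 of 6 Pparg-/-epi mice were female. Frozen non-lesional skin was scraped down to the superficial dermal vessels, so the samples held epidermis, hair follicle and some dermis.

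S100 proteins carry paired EF-hand calcium-binding motifs and mostly act as dimers, which expose a binding surface for target proteins when calcium is bound. S100A8 and S100A9 form the heterodimer calprotectin, which is abundant in neutrophils, is made by keratinocytes in wounded or inflamed skin, binds metal ions needed by microbes and signals through receptors such as TLR4 and RAGE. S100A10 and S100A11 pair with annexins at membranes, and S100A3 is a protein of the hair cuticle. Most S100 genes lie in the epidermal differentiation complex, a chromosomal region that also holds the genes for cornified envelope proteins.

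All 10 members lie on chromosome 3. The coordinates are those of the mm10 assembly that the counts table gives. From S100a1 to S100a9 the table lists 10 genes in 184.687 kb, of which 8 are members. S100a11 (93520496 to 93526288) and S100a10 (93555117 to 93564645) lie 28.829 kb apart on the far side of the cornified envelope genes. All members except S100a9 are on the plus strand, 8 have 3 exons and 2 (S100a13 and S100a14) have 4, and the summed exon lengths run from 392 bases (S100a8) to 1095 bases (S100a14). No exon of a member overlaps an exon of another gene in the table.

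The sequences just upstream of the start sites were read from RefSeq windows of the GRCm38.p6 assembly, which reach from 250 bases before to 50 bases after each start. Windows were present for 8 of the 10 members and not for S100a10 and S100a14. The stretches below are shown because they hold the TATAAA matches of the 2 genes that differed most between genotypes, the C/EBP motif found in S100a9, and the nuclear receptor hexamers nearest to a start site. Each is written 5′ to 3′ on the strand of the gene, with the matched letters in capitals.
S100a8 (chr3:90669029-90669058, plus strand; TATA box): caagctttcctcTATAAAagcagctgacac
S100a9 (chr3:90695704-90695733, minus strand; TATA box): caaggagctgccTATAAAtactgggcttac
S100a9 (chr3:90695939-90695968, minus strand; C/EBP core): ggtaggctgtcTTGCTTAAgatttgggcgg
S100a4 (chr3:90603734-90603763, plus strand; nuclear receptor hexamer): cagggtataaatAGGTCAgattgttgggct
S100a3 (chr3:90600154-90600183, plus strand; hexamer on the opposite strand): cagcctcagcgtTGACCTacttgggtcctt

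Motifs were searched on both strands. TATAAA occurred in 3 of the 8 member windows (S100a4, S100a8 and S100a9) and in 13.6% of all 32851 windows. It began at position -30 in S100a8, at -31 in S100a4 and at the annotated start itself in S100a9. The C/EBP core TTGCNNAA was found in S100a9 (position -236) and in no other member window, against 10.8% of all windows. The hexamer AGGTCA, which nuclear receptors including PPARs bind, occurred in 3 of 8 (S100a3, S100a4 and S100a11) and in 16.3% of all windows. The full PPAR response element, 2 such hexamers on the same strand separated by 1 base of any kind, occurred in 0 of 8 member windows and 0.0396% of all windows. The NF-kB motif (GGGA, any base, TT, any base, CC) and the STAT motif TTCNNNGAA were found in 0 of 8 member windows and in 1.20% and 8.30% of all windows. The AP-1 motif TGANTCA was found in S100a11 and S100a16 and in 7.81% of all windows. The S100a8 and S100a9 windows both held TATAAA, at different positions, and shared no other searched motif. The label TATA box above names the letters searched and not a position relative to the start.

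The libraries held between 10120840 and 18851255 counts, so that 1 count equalled 0.0520 to 0.107 CPM (counts scaled to a common library size, with TMM factors). Pparg had 59, 269, 5, 15, 58 and 13 counts in WT and 100, 107, 89, 16, 32 and 25 counts in the Pparg-/-epi mice, a log2 difference of -0.10 (SE 0.71). These counts cover the whole gene, including exons outside the floxed ones, and do not check the genotype labels. The keratinocyte markers Krt10 and Krt5 were among the most abundant listed markers. WT replicate 2 stood apart, with the lowest summed keratinocyte markers of all mice (23211 CPM, against 34999 to 57536 in the other 11) and the highest monocyte and macrophage sum (830 CPM, against 105 to 537). Values without it are given where it matters. In such bulk RNA, fewer cells of a type and less RNA per cell cannot be told apart. A gene was called altered when its log2 fold change was 0.6 or more in either direction with an adjusted p below 0.05 (edgeR quasi-likelihood test, Benjamini-Hochberg adjustment over all 14533 genes). All fold changes compare Pparg-/-epi with WT.

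The members fell into an abundant and a scarce set in WT mice when levels were expressed per transcript length (RPKM). S100a11 was the most abundant at 1416 ± 355 RPKM (SD, n = 6), above 99.7% of all listed genes. S100a10 (496 ± 91.7 RPKM) and S100a14 (421 ± 82.1 RPKM) followed, and S100a10 exceeded S100a14 in 5 of 6 mice. S100a6 (248 RPKM), S100a16 (232 RPKM) and S100a4 (212 RPKM) were not separated from each other, since S100a6 exceeded S100a16 in 3 of 6 mice and S100a16 exceeded S100a4 in 4 of 6. A wide step followed. S100a13 (25.9 ± 3.99 RPKM) was above S100a3 (19.0 ± 18.5 RPKM) in 4 of 6 mice, and the lowest levels were those of S100a9 (5.08 ± 5.09 RPKM) and S100a8 (4.88 ± 3.41 RPKM), each above the other in 3 of 6 mice.

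In Pparg-/-epi mice the 6 abundant genes kept the same order of mean levels, and the order of the lower 4 changed. S100a11 stood at 1726 ± 405 RPKM (SD, n = 6). S100a10 (514 RPKM) and S100a14 (508 RPKM) were not separated, with S100a10 higher in 2 of 6 mice. S100a6 (368 RPKM) exceeded S100a16 (270 RPKM) in 6 of 6 mice, and S100a16 exceeded S100a4 (232 RPKM) in 6 of 6. S100a8 (32.1 ± 9.65 RPKM) and S100a9 (33.0 ± 7.13 RPKM) had moved above S100a13 (22.9 ± 2.80 RPKM), which S100a8 exceeded in 6 of 6 mice. S100a3 had a mean of 38.5 RPKM, but exceeded S100a9 in only 2 of 6 mice. Thus S100a8 stood above 37.9% of listed genes in WT and above 83.8% in the Pparg-/-epi mice, and S100a9 above 38.8% and 84.3%.

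**Figure D1:**
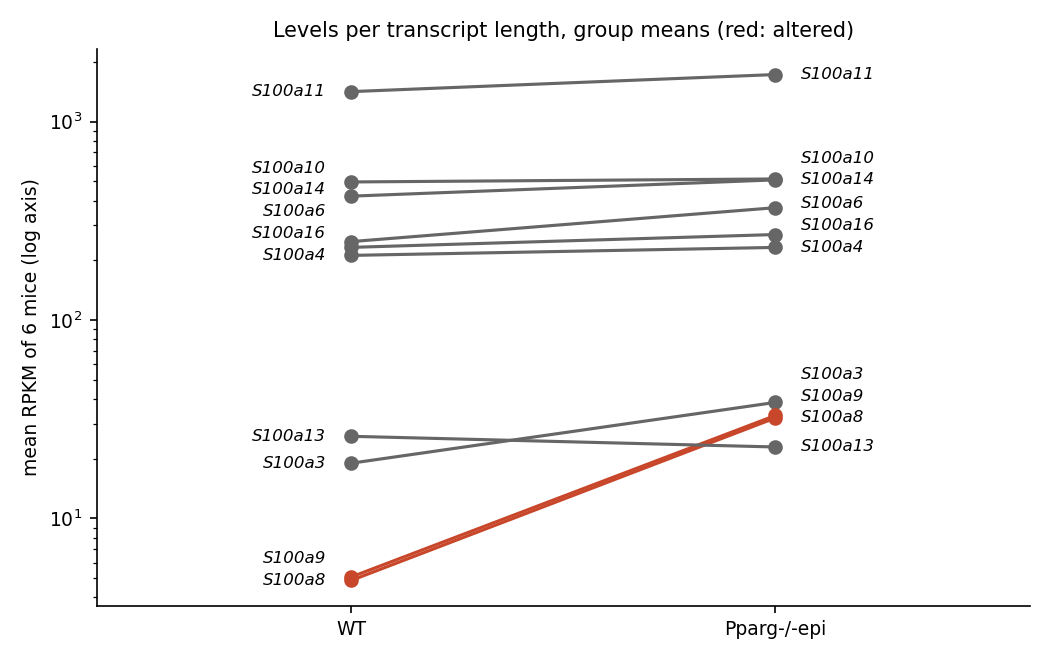
Mean level of each S100 gene per transcript length (RPKM of 6 mice, log axis) in WT and Pparg-/-epi mice, joined by a line for each gene, with altered genes in red. S100a8 and S100a9 rise from about 5 to 32.1 and 33.0 RPKM, while the lines of the 6 abundant genes are nearly flat.

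Added together, the 10 members made up 0.179% to 0.243% of all counts in WT and 0.208% to 0.288% in the Pparg-/-epi mice. The ranges overlapped. S100a11 alone supplied 34.2 ± 5.51% (SD, n = 6) of the CPM of the members in WT and 34.5 ± 2.39% in the Pparg-/-epi mice. The share of S100a8 and S100a9 together was 0.0580% to 0.434% in WT and 0.960% to 2.02% in the Pparg-/-epi mice, so the groups did not overlap and calprotectin transcripts stayed a small part of the S100 pool in both.

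Of the 10 members, 2 were altered, S100a8 and S100a9, and both were higher in the Pparg-/-epi mice, against a background of 10.3% of all genes altered and 5.19% altered and higher. S100a6 passed the adjusted p without reaching the fold threshold, and 15.4% of all genes passed the adjusted p at any fold. The median log2 fold change of the 10 members was 0.28, against -0.01 over all genes. Estimates were positive for 9 members and negative for S100a13. CPM values of the 2 groups did not overlap for 3 members (S100a6, S100a8 and S100a9), and for 7.9% of all genes (3.95% with the Pparg-/-epi mice above). In all 3 members the Pparg-/-epi mice were the higher group.

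**Figure D2:**
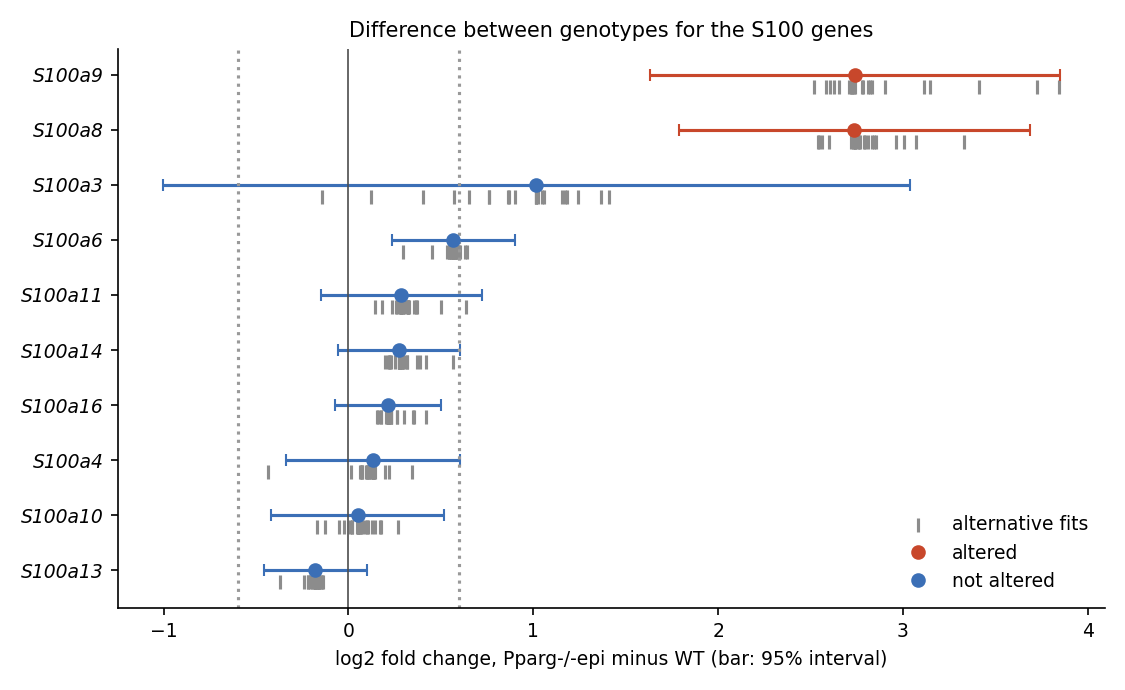
Log2 fold change of each S100 gene, Pparg-/-epi minus WT, with its 95% interval, and below each interval a grey mark for every alternative fit. Dotted lines mark a log2 fold change of 0.6 in either direction. The intervals of S100a8 and S100a9 lie wholly above 0.6, that of S100a6 lies above 0, and the other 7 include 0.

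S100a8, which encodes the shorter subunit of calprotectin, rose 6.67-fold. It lies on chromosome 3 from 90669071 to 90670034. Its counts were 10, 44, 34, 14, 41 and 11 in WT replicates 1 to 6 and 181, 194, 329, 124, 142 and 131 in Pparg-/-epi replicates 7 to 12. In CPM these were 0.639, 2.34, 3.62, 0.941, 3.24 and 0.692 in WT and 9.41, 11.8, 19.9, 10.3, 12.8 and 11.3 in the Pparg-/-epi mice. The lowest Pparg-/-epi mouse was well above the highest WT mouse, and WT mice fell into low (replicates 1, 4 and 6) and somewhat higher values (replicates 2, 3 and 5). The means were 1.91 ± 1.34 and 12.6 ± 3.78 CPM (SD, n = 6 each). The log2 fold change was 2.74 (SE 0.44, 95% interval 1.79 to 3.69, adjusted p = 0.00165). It was 2.81 without WT replicate 2.

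S100a9, the subunit whose C-terminal tail takes part in binding manganese in the complex, rose 6.68-fold. It is encoded on the minus strand from 90692630 to 90695721, and the 2 genes together span 26.65 kb with no other listed gene between them. Its counts were 22, 23, 73, 27, 41 and 8 in WT and 266, 206, 378, 211, 209 and 212 in the Pparg-/-epi mice. In CPM these were 1.41, 1.22, 7.78, 1.82, 3.24 and 0.504 in WT and 13.8, 12.5, 22.9, 17.5, 18.9 and 18.2 in the Pparg-/-epi mice. The groups did not overlap, although WT replicate 3 was more than 2 times any other WT mouse. The means were 2.66 ± 2.67 and 17.3 ± 3.74 CPM (SD, n = 6 each), with a log2 fold change of 2.74 (SE 0.51, 95% interval 1.63 to 3.85, adjusted p = 0.00403). The fold was most sensitive to WT replicate 3, without which the log2 fold change was 3.41 (adjusted p = 0.000509), and it was 2.58 without WT replicate 2.

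**Figure D3:**
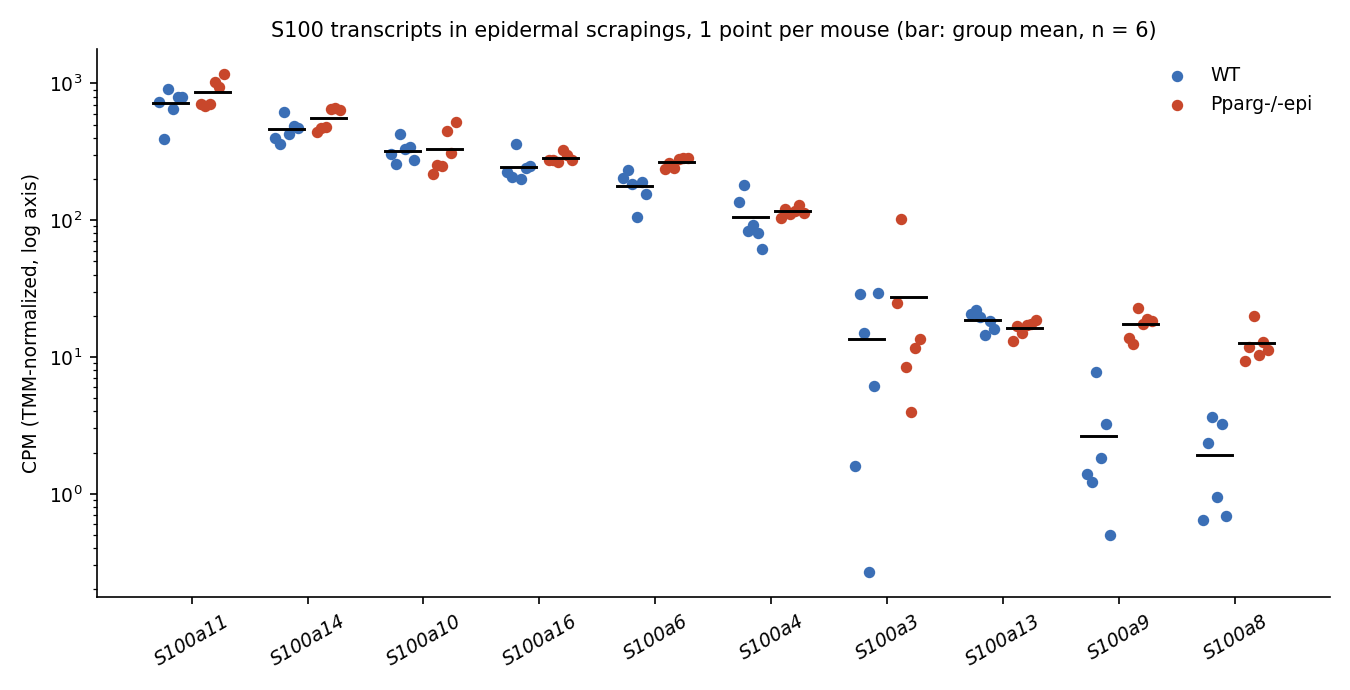
Level of each S100 gene in every mouse, as TMM-normalized CPM on a log axis, with a bar at the mean of the 6 mice of each group. For S100a8 and S100a9 all Pparg-/-epi mice lie above all WT mice, and S100a3 varies 110-fold among WT mice.

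The 2 calprotectin genes moved by nearly the same amount. The ratio of S100a9 to S100a8 counts was 1.06 to 1.70 in the Pparg-/-epi mice and 0.523 to 2.20 in WT mice, where counts were low, with means of 1.41 and 1.42. Within a genotype, log2(CPM + 1) of the 2 genes had Pearson's r of 0.78 in WT (exact permutation test, two-sided, p = 0.050, adjusted over 4 values 0.175) and 0.71 in the Pparg-/-epi mice (p = 0.110 by the same permutation test, adjusted 0.175). Spearman's rho was 0.71 (exact permutation p = 0.136) and 0.66 (exact permutation p = 0.175). Without the 2 mice farthest from the median of S100a8, r was 0.17 in WT and -0.00072 in the Pparg-/-epi mice, and rho was 0 and 0.40. The relation did not hold over these remaining 4 mice per group, which cover a narrower range of S100a8 by construction.

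In females alone the log2 fold change was 3.33 for S100a8 and 3.85 for S100a9. In males, mean S100a9 was 4.14 CPM (3 WT mice) against 17.9 CPM (2 Pparg-/-epi mice), and in females it was 1.18 CPM (3 WT mice) against 17.0 CPM (4 Pparg-/-epi mice). The difference between the sexes in the log2 fold change of S100a9 was -1.71 (male minus female, SE 0.82, adjusted p = 0.895, edgeR quasi-likelihood test). Mice with later mouse-name prefixes (222 and above) did not stand apart: S100a9 was 17.5 to 18.9 CPM in the 3 later and 12.5 to 22.9 CPM in the 3 earlier Pparg-/-epi mice. With the earlier and later prefixes as blocks the log2 fold changes were 2.85 (S100a8) and 2.90 (S100a9), and both genes remained altered. The earlier block held only 1 WT mouse, replicate 1 (prefix 217), so the comparison within that block rests on this mouse.

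Neutrophil markers were examined beside calprotectin. Of 16 listed neutrophil genes, 4 had a row and 12 were not analysed here, among them the defining markers Ly6g, Mpo, Elane and Ngp. Cxcr2, a chemokine receptor, rose (log2 fold change 3.55, adjusted p = 0.00662), from 0 to 45 counts in WT to 95 to 267 counts in the Pparg-/-epi mice. Lcn2, an iron-sequestering protein that keratinocytes also make, rose (2.81, adjusted p = 0.0106), as did the Fc receptor Fcgr4 (2.16, adjusted p = 0.0376). Csf3r, the receptor for granulocyte colony-stimulating factor, had a log2 difference of 1.14 (adjusted p = 0.0688, quasi-likelihood test). It was called altered by the likelihood ratio test and DESeq2, which called 4 of the 4. The share of all genes altered by those 2 tests was not computed, so nothing is read from that count. By the quasi-likelihood test 3 of the 4 were altered and higher in all mice, beside 5.19% of all genes, and 1 of the 4 was altered in females alone, beside 4.48%. The table keeps genes above 0.5 CPM in at least 6 mice. Cxcr2 exceeded 0.5 CPM in 3 WT mice and Fcgr4 in 2. Lcn2 was 0.471 and 0.126 CPM in WT replicates 4 and 6, and 0.533 CPM in WT replicate 3. These 3 altered genes are therefore listed because of their level in the Pparg-/-epi mice. Their direction is partly fixed by that filter. S100a8 and S100a9 exceeded 0.5 CPM in all 12 mice. Cxcr2 and Fcgr4 had 0 counts in WT replicate 4, where S100a8 had 14 and S100a9 27. The summed CPM of the 4 genes was 1.32 to 6.71 in WT and 14.6 to 28.7 in the Pparg-/-epi mice, a sum that the same filter affects. Within a genotype the order differed: WT replicates 1 and 2 had the highest neutrophil sums among WT mice (6.71 and 6.21 CPM), while WT replicates 3 and 5 had the highest S100a8 plus S100a9 (11.4 and 6.48 CPM). The part of neutrophils in the result was not tested.

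**Figure D4:**
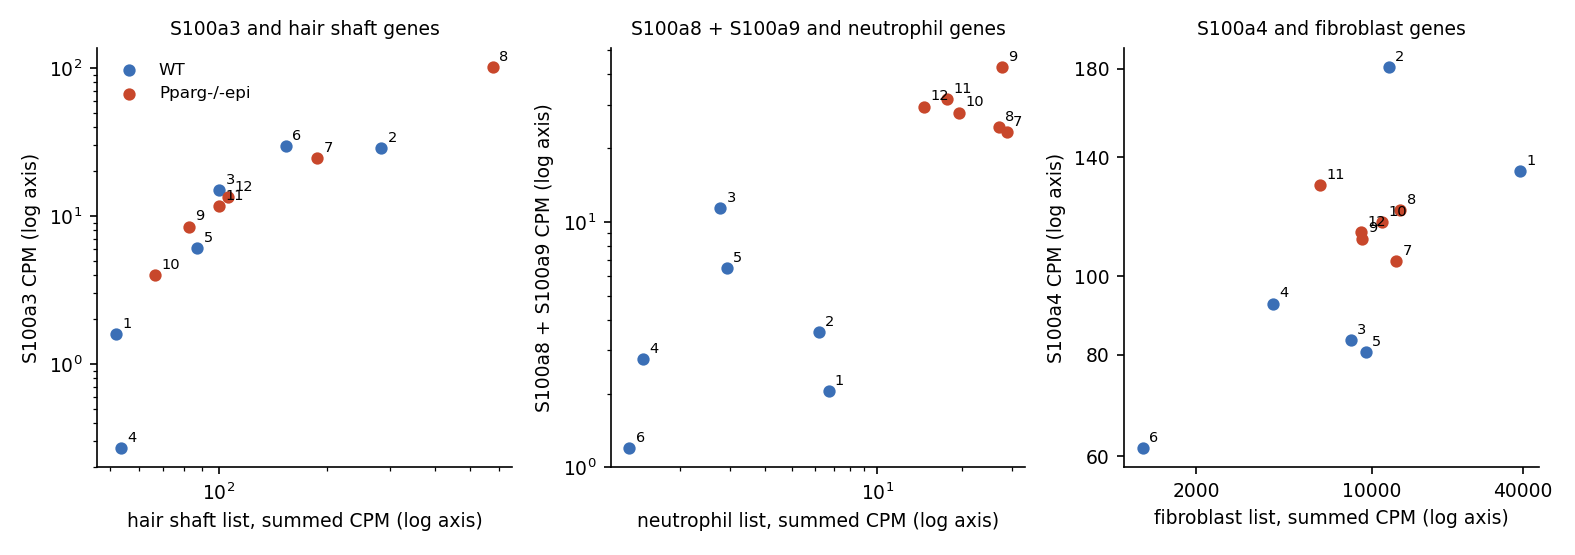
S100 levels against summed marker genes in each mouse, in CPM on log axes, with replicate numbers beside the points. S100a3 broadly follows the hair shaft sum across mice of both genotypes. S100a8 plus S100a9 and the sum of the 4 listed neutrophil genes are both higher in the Pparg-/-epi mice. S100a4 is widely spread in WT mice and narrow in the Pparg-/-epi mice.

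The receptors and signalling partners of calprotectin gave 0 altered genes of 7 in the quasi-likelihood test, against 10.3% of all genes. At an unadjusted p under 0.05, 0 of 7 passed in that test, the likelihood ratio test and DESeq2. The share of all genes at that unadjusted p was not computed, so nothing is read from this count. Tlr4, the innate immune receptor that calprotectin activates, had 67, 196, 0, 17, 13 and 17 counts in WT and 133, 123, 131, 23, 23 and 32 counts in the Pparg-/-epi mice. Its groups overlapped, and the log2 difference was 0.68 (SE 0.79, adjusted p = 0.626). Ager, which encodes RAGE, was between 1.38 and 3.20 CPM in WT and between 2.00 and 4.34 CPM in the Pparg-/-epi mice (log2 difference 0.40, adjusted p = 0.344).

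Of 8 genes listed as regulators of S100a8 and S100a9, 2 were altered, Bcl3 and Nfkbiz, and both were higher, beside 10.3% of all genes altered and 5.19% altered and higher. Both encode nuclear proteins of the IκB family that modify NF-κB target genes. Bcl3 was 10.4, 8.86, 5.01, 2.42, 6.56 and 8.69 CPM in WT and 25.5, 19.6, 28.1, 23.6, 22.7 and 38.2 CPM in the Pparg-/-epi mice, with no overlap. Its log2 fold change was 1.91 (SE 0.30, adjusted p = 0.00134). Nfkbiz was 66.0 to 87.2 CPM in WT and 86.6 to 174.6 CPM in the Pparg-/-epi mice, a slight overlap, with a log2 fold change of 0.62 (SE 0.15, adjusted p = 0.0143). Nfkbiz lay close to the fold threshold and was no longer altered without WT replicate 1, WT replicate 5 or Pparg-/-epi replicate 12, or against the WT mice outside name prefix 226. The other 6, among them the C/EBP genes, Stat3 and Klf4, did not pass. In females alone, 0 of the 27 partner and regulator genes of all 3 lists were altered, where 4.48% of all genes were, compared with 3 of 27 in all mice. At an unadjusted p under 0.05 in the quasi-likelihood test, 6 of the 27 passed in females, Bcl3 and Nfkbiz among them, and 7 of 27 in all mice. The share of all genes that passed this unadjusted p was not computed, so nothing is read from these 2 counts.

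S100a6 (90612894 to 90614414), calcyclin, a protein of proliferating cells that binds annexins and the ubiquitin ligase partners CACYBP and SUGT1, was modestly higher in the Pparg-/-epi mice. Its CPM was 204, 232, 183, 106, 192 and 156 in WT and 235, 260, 242, 281, 284 and 286 in the Pparg-/-epi mice. The groups did not overlap after TMM scaling, but the gap between WT replicate 2 and Pparg-/-epi replicate 7 was narrow, and under scaling by total counts they overlapped (WT up to 258 CPM, Pparg-/-epi from 240 CPM). The fold was 1.48 (log2 0.57, SE 0.15, 95% interval 0.23 to 0.90, adjusted p = 0.0265), below the threshold for an altered gene. Without WT replicate 2 it was altered (log2 0.64, adjusted p = 0.00919), and it was also altered with sex as a covariate (0.60). The adjusted p lost its threshold without WT replicate 6 (0.0611) and without Pparg-/-epi replicates 8, 9, 11 or 12 (0.05001 to 0.0552), and in females alone (log2 0.63, adjusted p = 0.170). Against the 2 WT mice outside name prefix 226 alone it was 0.29 (adjusted p = 0.270). Cacybp (log2 difference 0.03) and Sugt1 (0.24) were not altered.

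S100a10 and S100a11, best known as partners of annexins A2 and A1, were not altered. S100A10 has lost calcium binding and holds annexin A2 in a tetramer at the membrane, and S100A11 binds annexin A1 and is a substrate of the cornified envelope. S100a10 was 303, 258, 425, 332, 342 and 276 CPM in WT and 218, 255, 248, 449, 310 and 525 CPM in the Pparg-/-epi mice. The Pparg-/-epi mice spanned the whole WT range and more, and the log2 difference was 0.05 (SE 0.22, 95% interval -0.42 to 0.52, adjusted p = 0.910). S100a11 was 732, 395, 911, 647, 795 and 801 CPM in WT and 702, 681, 705, 1022, 941 and 1169 CPM in the Pparg-/-epi mice. WT replicate 2 was the lowest of all mice, and the log2 difference was 0.29 (SE 0.20, 95% interval -0.15 to 0.72, adjusted p = 0.380), or 0.15 without that mouse. The intervals reach to a log2 difference of 0.52 for S100a10 and 0.72 for S100a11.

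Within the Pparg-/-epi group, S100a6, S100a10, S100a11, S100a13 and S100a14 split by mouse-name prefix. The share of all genes that split this way was not counted, so the split is not read as particular to S100 genes. S100a10 was 218 to 255 CPM in the 3 earlier (replicates 7 to 9) and 310 to 525 CPM in the 3 later mice (replicates 10 to 12). S100a11 was 681 to 705 CPM against 941 to 1169 CPM, and S100a14 was 442 to 483 CPM against 640 to 663 CPM. S100a6 was 235 to 260 CPM against 281 to 286 CPM, and S100a13 was 13.1 to 17.0 CPM against 17.2 to 18.6 CPM. For each of the 5 genes the later mice lay wholly above the earlier ones. The 3 earlier mice were all female, and 2 of the 3 later ones (replicates 10 and 12) were the males of the group, so prefix and sex were largely confounded. RIN was 7.7 to 8.6 in the earlier and 5.7 to 7.7 in the later mice, and the labels do not say what the prefix stands for. The parts of sex and RNA quality in this split were not tested. With RIN as a covariate the genotype difference was 0.50 for S100a11 (adjusted p = 0.0476) and 0.42 for S100a14 (adjusted p = 0.0223), past the adjusted p and short of the fold threshold.

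The response of S100a10 was also compared between the sexes. Its mean in females was 288 CPM (3 WT mice) against 258 CPM (4 Pparg-/-epi mice), and in males it was 357 CPM (3 WT mice) against 487 CPM (2 Pparg-/-epi mice). Both of these Pparg-/-epi males had later name prefixes. The difference between the sexes in its log2 fold change was 0.61 (male minus female, SE 0.25), with an unadjusted p of 0.0307 and an adjusted p of 0.895 in the edgeR quasi-likelihood test. By the adjusted p, 0 of the 10 members differed between the sexes in their response, and 0 of all 14533 genes did. At an unadjusted p under 0.05 there was 1 member (5.1% of all genes) in this test and 2 in the likelihood ratio test (S100a9 and S100a10).

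The annexins themselves were abundant. Anxa2 was 1285, 908, 1760, 1569, 1714 and 1780 CPM in WT and 909, 890, 1061, 1380, 1082 and 1382 CPM in the Pparg-/-epi mice, a log2 difference of -0.43 (SE 0.18, adjusted p = 0.137). Anxa1 was 738 to 1426 CPM in WT and 697 to 1437 CPM in the Pparg-/-epi mice, with a log2 difference of -0.11 (adjusted p = 0.779). As with S100a10 and S100a11, the highest Anxa1 and Anxa2 values among Pparg-/-epi mice were those of replicates 10 and 12, the 2 males of the group.

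Of the 12 listed annexins and other intracellular partners, 1 was altered, against 10.3% of all genes. This was Syt1, a membrane calcium sensor that joins S100A13 and FGF1 in a secretion complex, and it was lower. Syt1 was 0.831, 5.25, 2.45, 0.874, 1.11 and 1.26 CPM in WT and 0.676, 0.788, 0.363, 0.499, 0.362 and 0.258 CPM in the Pparg-/-epi mice, with no overlap. Its log2 fold change was -1.96 (SE 0.51, adjusted p = 0.0216). Syt1 was no longer altered with earlier and later name prefixes as blocks, without Pparg-/-epi replicate 9 or against the WT mice outside name prefix 226. Counts were low, with 13 to 99 in WT and 3 to 13 in the Pparg-/-epi mice. Syt1 exceeded 0.5 CPM in every WT mouse, and among Pparg-/-epi mice only in replicates 7 and 8. It is thus listed because of its level in WT mice, and its direction is partly fixed by the filter of the table.

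S100a13 (90514435 to 90524581), which takes part in the release of FGF1 and interleukin 1α without a signal peptide, was the member with a negative estimate. It was 20.8, 21.9, 19.7, 14.5, 18.4 and 16.1 CPM in WT and 13.1, 17.0, 14.96, 17.2, 17.5 and 18.6 CPM in the Pparg-/-epi mice. The groups overlapped, and the log2 difference was -0.18 (SE 0.13, 95% interval -0.46 to 0.10, adjusted p = 0.389). It was also among the least variable members, with a coefficient of variation of 15.4% in WT and 12.2% in the Pparg-/-epi mice.

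S100a14 and S100a16, members expressed mainly in epithelia, lie next to each other, and neither was altered. S100a14 (90526849 to 90528835) was 396, 363, 617, 426, 491 and 473 CPM in WT and 442, 469, 483, 644, 663 and 640 CPM in the Pparg-/-epi mice. The log2 difference was 0.27 (SE 0.15, 95% interval -0.06 to 0.60, adjusted p = 0.260). S100a16 (90541223 to 90543151) was 224, 208, 359, 200, 242 and 247 CPM in WT and 274, 274, 268, 326, 300 and 274 CPM in the Pparg-/-epi mice. All Pparg-/-epi mice were above 5 of the 6 WT mice and below WT replicate 3, and the log2 difference was 0.22 (SE 0.13, 95% interval -0.07 to 0.50, adjusted p = 0.312). Without WT replicate 3 it was 0.35 (adjusted p = 0.0225), which passes the adjusted p and not the fold threshold. WT replicate 3 was the highest WT mouse for S100a8, S100a9, S100a10, S100a11, S100a14 and S100a16, and the member sum was highest there among WT mice (2625 CPM).

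S100a4 (90603770 to 90606045), known as a fibroblast and macrophage protein that binds non-muscle myosin and is linked to cell motility, was not altered. It was 135, 181, 83.4, 92.5, 80.7 and 61.4 CPM in WT and 104, 121, 111, 117, 129 and 113 CPM in the Pparg-/-epi mice. The Pparg-/-epi values fell inside the WT range, and the log2 difference was 0.13 (SE 0.22, 95% interval -0.34 to 0.60, adjusted p = 0.740). The coefficient of variation was 41.9% in WT and 7.38% in the Pparg-/-epi mice. Without WT replicate 2, the highest mouse, the log2 difference was 0.34 (adjusted p = 0.136, quasi-likelihood test). Against the 2 WT mice outside name prefix 226 (replicates 1 and 2), which had the highest S100a4, the difference was -0.43 (adjusted p = 0.124).

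Markers of dermal cells also varied widely among WT mice. The fibroblast sum was 39061, 11729, 8273, 4031, 9500 and 1223 CPM in WT replicates 1 to 6 and 6248 to 13018 CPM in the Pparg-/-epi mice. In the quasi-likelihood test 0 of the 10 fibroblast genes were altered, beside 10.3% of all genes. At an unadjusted p under 0.05, 0 of 10 passed in that test, the likelihood ratio test and DESeq2. The monocyte and macrophage sum was 426, 830, 172, 219, 153 and 105 CPM in WT and 286 to 537 CPM in the Pparg-/-epi mice. Of its 12 genes, 0 were altered in the quasi-likelihood test (1 at an unadjusted p under 0.05) and 1, Ms4a7, in DESeq2. The share of all genes was not computed for the unadjusted p or for DESeq2, so nothing is read from those counts. WT replicate 6 had the lowest S100a4, fibroblast sum and macrophage sum of all mice. The 4 mice with the lowest S100a4 were the 4 with the lowest macrophage sum. These were WT replicates 3 to 6, the 4 mice of name prefix 226. Their RIN was 5.9 to 7.1, against 7.4 and 8.6 in WT replicates 1 and 2. The parts of prefix and RNA quality in this match were not tested. At the other end the match was weaker, with 2 of the 4 highest mice shared. The fibroblast sum shared 3 of the 4 highest and 3 of the 4 lowest mice with S100a4. Taken over 3 mice, the fibroblast sum shared 1 of the highest and 1 of the lowest. Over 3 mice the macrophage sum shared 1 of the highest and 3 of the lowest. The part of these cells in the S100a4 level was not tested.

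S100a3 (90600215 to 90602702), a zinc- and calcium-binding protein of the hair cuticle, was the most variable member. It was 1.598, 28.7, 14.9, 0.269, 6.09 and 29.6 CPM in WT and 24.7, 102, 8.48, 3.99, 11.7 and 13.5 CPM in the Pparg-/-epi mice. WT mice differed by 110-fold and Pparg-/-epi mice by 25.5-fold, and the groups overlapped over most of their range. The log2 difference was 1.02 (SE 0.93, 95% interval -1.004 to 3.04, adjusted p = 0.518). It rested on Pparg-/-epi replicate 8, without which it was -0.14 (adjusted p = 0.939).

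The level of S100a3 went broadly with that of hair shaft genes across mice. The summed CPM of 14 listed hair keratins and hair shaft regulators was 51.9, 283, 100, 53.7, 87.3 and 154 in WT and 188, 579, 82.9, 66.6, 100 and 106 in the Pparg-/-epi mice. In the quasi-likelihood test 0 of the 14 were altered, beside 10.3% of all genes. At an unadjusted p under 0.05, 0 of 14 passed in any of the 3 tests, with no share of all genes computed. The 4 mice highest for S100a3 (Pparg-/-epi replicates 7 and 8, WT replicates 2 and 6) had the 4 highest hair shaft sums. The lowest 3 mice were also the same, and 3 of the lowest 4 were shared. Within the top, the order differed, with 2 of the highest 3 and 1 of the highest 2 shared. Padi3, the deiminase that converts arginines of S100A3 in the hair cuticle, was 0.0639, 24.3, 0.746, 0.336, 2.29 and 7.68 CPM in WT and 22.1, 60.3, 7.21, 1.16, 6.69 and 3.95 CPM in the Pparg-/-epi mice. Padi3 was likewise highest in Pparg-/-epi replicate 8 and not altered (log2 difference 1.504, SE 1.12, adjusted p = 0.412). The part of hair content of the scrapings in the S100a3 level was not tested.

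Another 3 S100 genes had a row and were not altered. S100a1, the neighbour of S100a13, was 10.6 to 40.1 CPM in WT and 11.6 to 29.9 CPM in the Pparg-/-epi mice (log2 difference -0.35, adjusted p = 0.523). S100a7a, the mouse counterpart of psoriasin, lies next to S100a8 and was 0.639, 5.94, 0.426, 0.269, 0.395 and 0.881 CPM in WT and 3.33, 5.64, 1.03, 0.250, 0.723 and 0.601 CPM in the Pparg-/-epi mice. Its log2 difference was 0.42 (SE 0.86, adjusted p = 0.795), beside 2.74 for S100a8. S100b, a protein of Schwann cells and other neural crest derivatives on chromosome 10, was 1.39 to 4.35 CPM in WT and 0.832 to 1.94 CPM in the Pparg-/-epi mice (log2 difference -0.75, adjusted p = 0.134).

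Along the chromosome, the altered members were the pair at the end of the S100 cluster. From S100a1 to S100a9, 2 of 10 listed genes were altered (S100a8 and S100a9), beside 10.3% of all genes, and the gene beyond S100a9, the peptidoglycan recognition gene Pglyrp4, was not (log2 difference 0.26, adjusted p = 0.659). Between S100a9 and S100a11 the table lists 43 genes in 2745 kb, which include the cornified envelope families. Of these, 22 (51.2%) were altered and higher and 0 altered and lower, beside 5.19% and 5.08% of all genes. S100a11 and S100a10 at the far end, and their outer listed neighbours Tchhl1 (0.30, adjusted p = 0.878) and Them4 (-0.16, adjusted p = 0.529), were not altered.

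**Figure D5:**
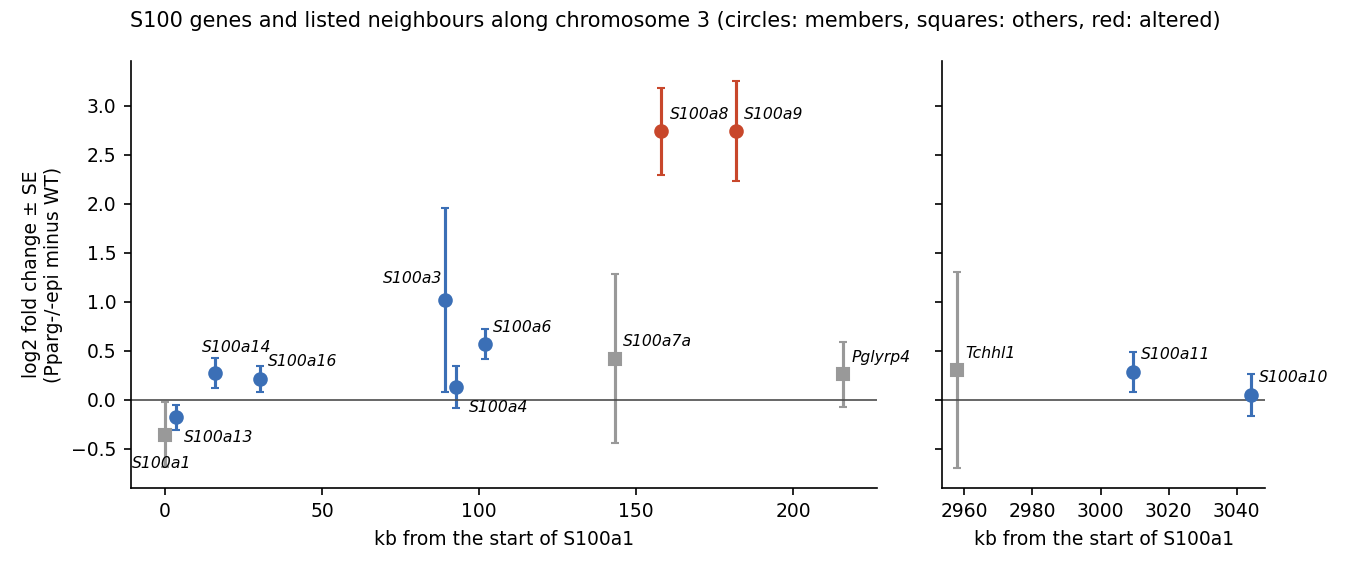
Log2 fold change (Pparg-/-epi minus WT, bars show SE) of S100 genes and their listed neighbours by distance along chromosome 3 from the start of S100a1, in kb, with the stretch between Pglyrp4 and Tchhl1 left out. S100a8 and S100a9 (red) stand at 2.74, and the adjacent S100a7a and Pglyrp4 at 0.42 and 0.26.

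Some members share sequence with other genes. Of the 75-base stretches of S100a4 transcripts, 44.8% also occur in the transcript model Gm42674, and of those of S100a11, 37.8% occur in Gm12854 and Gm7665. S100a3 shares 1.27%, and the other 7 members share none. The authors removed reads that mapped to several genome positions. The comparison was between transcripts and not genome positions, so it does not show which shared stretches lost reads. The levels of S100a4 and S100a11 are uncertain where such reads were lost.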

How the data were processed

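Dorsal epidermal scrapings of 12 mice were sequenced as paired-end mRNA libraries. The authors aligned the reads to mm10 (STAR 2.5.2b per the submitters' processing notes), removed multi-mapped reads and deposited counts per gene from featureCounts (Subread 1.5.1), not normalized. The table also holds gene lengths, and 2800 blank rows were dropped. Each of the 14533 listed genes exceeds 0.5 CPM in at least 6 mice, so no other filter was used. Whether the counting used strand is not given in the sources used here.

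Counts were scaled with TMM and compared by the quasi-likelihood test of edgeR 4.0.16 under R 4.3.3, on all 12 mice and all genes, with no term besides genotype. The likelihood ratio test, which the study used, and DESeq2 1.42.0 were alternatives. The script was tested on simulated data. Mice are the replicates, and sample labels do not say which are littermates. CPM and RPKM use TMM library sizes. The columns of Pparg-/-epi replicates 11 and 12 were matched to mice through the library number in the title. Ages are those of the labels.

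All 10 members were to be named, as were altered partners and regulators, Anxa1, Anxa2, Tlr4, Ager, other S100 genes with a row, listed neighbours, and of each other list the most abundant or most changed genes. Padi3, Cacybp, Sugt1, Stat3, Klf4 and Krt5, and the S100a8 plus S100a9 sum, were chosen after their values were seen. The members and lists were chosen with earlier results of these data known. Other marker lists, by the quasi-likelihood test (10.3% of all genes altered), gave 1 altered of 6 T cell genes (Cd3e, log2 fold change -0.75), 0 of 7 Langerhans and dendritic genes, 0 of 5 melanocyte genes, 0 of 5 endothelial genes and 1 of 10 keratinocyte genes (Krt14, 0.98), with 2, 1, 0, 1 and 4 at an unadjusted p under 0.05. The likelihood ratio test altered 2, 0, 0, 0 and 1 of them (2, 1, 2, 1 and 4 unadjusted), and DESeq2 2, 0, 0, 0 and 2 (2, 1, 1, 1 and 4 unadjusted). For genotype, the share of all genes at an unadjusted p under 0.05 was not computed. Nor was the share altered by the likelihood ratio test or DESeq2. Unadjusted counts of the lists, and counts altered by those 2 tests, therefore have no background beside them. Figures were drawn with matplotlib 3.10.9.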

Additional observations from a re-analysis of the deposited data

Results flagged for a closer look

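Among 20 checks of the 6 CPM values of a member in a group, 3 had a highest mouse set apart from the rest. For independent and normally distributed values chance gives about 1 in 20. These checks used CPM without logarithms, and all members were measured in the same mice, so that rate need not apply here. In each, the gap to the next mouse, divided by the range of the group, exceeded Dixon's 95% critical value for a group of 6. S100a3 in Pparg-/-epi replicate 8 was 102 CPM, and the next mouse was 24.7 CPM (ratio 0.789). S100a8 in Pparg-/-epi replicate 9 was 19.9 CPM, and the next was 12.8 CPM (ratio 0.674). S100a16 in WT replicate 3 was 359 CPM, and the next was 247 CPM (ratio 0.703).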

How the results depend on the processing

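Across the alternatives, S100a8 stayed altered and higher in 23 of 23 fits (log2 fold change 2.54 to 3.33), and S100a9 in 22 of 22 (2.52 to 3.85). The number of altered members was 2 or 3 in every fit but 1: with at least 10 counts required in every mouse, 8 members were tested and 1 was altered, because S100a3 and S100a9 were not tested. S100a6 was altered in 2 of 23. Of the 27 partners and regulators, 3 were altered; 0 were in females only and 1 against the WT mice outside name prefix 226, where fewer mice were tested, and 2 to 3 when a mouse was left out. Direction turned for S100a10 in females only (-0.17), for S100a10 when a mouse was left out (-0.13 to 0.14), for S100a3 when a mouse was left out (-0.14 to 1.41) and for S100a4 against the WT mice outside prefix 226 (-0.43), and the cause was not tested. With a mouse left out, altered members numbered 2 to 3. No paired analysis was possible because the labels do not say which WT and Pparg-/-epi mice are littermates. Low counts limit S100a8 and S100a9 in WT mice (8 to 73 counts). Name prefix 226 is carried by 4 WT mice and by no Pparg-/-epi mouse.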
